A study of Mus musculus with 2 samples.

Results

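The cells described here were epithelial cells of mouse colorectal tumours that carried high counts of Clca4b, Duoxa2, Ly6d, Ly6g and Tmem37 and low counts of Wnt target genes. They were selected cell by cell from a droplet-based single-cell RNA-seq data set in which unique molecular identifiers (UMIs) were counted from the 3′ ends of transcripts. There were 2 libraries, one labelled WT and one labelled STK25 wKO, each prepared from pooled tumours of mice given azoxymethane and dextran sulphate sodium (AOM/DSS), a chemical model of colitis-associated cancer that both genotypes received. The knockout was present in the whole animal, the allele was not described in the sources used here, and neither age nor the number of pooled tumours was given. The series text also mentions a sort by mCherry that the methods do not describe. With 1 library per genotype there was no replicate check, no test was made, and every interval given is a 95% interval that covers counting error only, since cells are not replicates of mice.

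Barcodes with fewer than 200 genes or more than 25% mitochondrial UMIs were discarded. A cell was called epithelial when Epcam, Krt8, Krt18 and Cldn7 together had at least 12 UMIs and the leukocyte gene Ptprc had 0. Among epithelial cells, those with fewer than 4 UMIs over the Wnt targets Nkd1, Notum, Wif1, Lgr5 and Axin2, and at least 10 UMIs over Clca4b, Duoxa2, Ly6d, Ly6g and Tmem37, were selected, provided that this sum was not below that of the colonocyte genes Car4, Slc26a3, Guca2a and Tgm3. The rule found 815 cells (276 from the library labelled WT, 539 from that labelled STK25 wKO) of 3776 epithelial cells and 26153 cells that passed the filters. They are called inflammatory epithelial cells below. The values of the 5 genes chose them, so their levels are given as a description.

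DUOXA2 is the maturation factor that carries the oxidase DUOX2 to the cell surface, where the pair releases hydrogen peroxide at the mucosal surface. LY6D and LY6G belong to a family of small proteins held in the membrane by a lipid anchor. Ly6g is best known as a surface marker of neutrophils and Ly6d as a marker of B-lineage cells and stratified epithelia. CLCA4B is a member of the calcium-activated chloride channel regulator family, and SAA1 is an acute phase protein that intestinal epithelium makes in contact with bacteria and under inflammatory cytokines. In the normal colon, crypt base cells depend on Wnt signals and give rise to absorptive colonocytes and mucus-secreting goblet cells. After injury, epithelial cells can take up a regenerative programme with genes of the fetal gut.

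In GRCm38, Duoxa2 (ENSMUSG00000027225) lies on chromosome 2 at chr2:122298900-122302885 on the plus strand, and Duox2 lies on the minus strand at chr2:122279247-122298449, so that their annotated start sites face away from each other 451 bases apart. Promoter windows of 300 bases, 250 before and 50 after the start site, were taken from RefSeq (GRCm38.p6). Of the 20 genes with the highest ratios to other epithelial cells, 14 had a window. The Duoxa2 window (chr2:122298650-122298949, plus strand) is shown because it covers the bases next to Duoxa2 in the stretch between both start sites, with the TATA box letters TATAAA in capitals, 30 bases before the start site:
Duoxa2: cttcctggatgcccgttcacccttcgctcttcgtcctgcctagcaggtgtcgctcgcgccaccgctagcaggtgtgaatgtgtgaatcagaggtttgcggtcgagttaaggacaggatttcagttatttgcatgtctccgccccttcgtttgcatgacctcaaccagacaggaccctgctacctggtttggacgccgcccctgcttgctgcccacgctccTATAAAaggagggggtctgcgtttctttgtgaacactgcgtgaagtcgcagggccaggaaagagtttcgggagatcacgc
The letters TATAAA, searched on both strands like the other motifs, were found in the windows of 6 of the 14 genes (Clca4b, Duoxa2, Ifit1bl1, Ly6c1, Ly6g and Sprr2h) and in 13.6% of all 32851 windows. A match is a description of letters and shows no binding.

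Among the 20 highest genes, Gbp2 was in the interferon response list, and Ifit1bl1 and Ifit3b belong to the IFIT family of interferon-induced genes. Their windows are shown next because they held the core of the interferon-stimulated response element (GAAA, any 2 bases, GAAA). Capitals mark the core on either strand. The Ifit3b window was chr19:34607707-34608006 on the plus strand, the Ifit1bl1 window chr19:34601919-34602218 on the minus strand, and the Gbp2 window chr3:142620413-142620712 on the plus strand:
Ifit3b: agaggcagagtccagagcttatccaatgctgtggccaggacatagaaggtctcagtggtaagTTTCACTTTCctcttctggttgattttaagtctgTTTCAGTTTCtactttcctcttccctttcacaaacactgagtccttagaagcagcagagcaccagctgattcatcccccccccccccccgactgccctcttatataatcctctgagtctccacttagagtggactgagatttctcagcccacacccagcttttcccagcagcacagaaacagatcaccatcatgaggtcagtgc
Ifit1bl1: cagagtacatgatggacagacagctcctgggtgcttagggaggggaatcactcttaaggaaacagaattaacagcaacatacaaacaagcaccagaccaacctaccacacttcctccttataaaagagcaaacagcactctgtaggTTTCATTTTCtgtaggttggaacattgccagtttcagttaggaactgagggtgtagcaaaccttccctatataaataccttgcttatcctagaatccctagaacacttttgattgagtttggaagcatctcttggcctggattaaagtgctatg
Gbp2: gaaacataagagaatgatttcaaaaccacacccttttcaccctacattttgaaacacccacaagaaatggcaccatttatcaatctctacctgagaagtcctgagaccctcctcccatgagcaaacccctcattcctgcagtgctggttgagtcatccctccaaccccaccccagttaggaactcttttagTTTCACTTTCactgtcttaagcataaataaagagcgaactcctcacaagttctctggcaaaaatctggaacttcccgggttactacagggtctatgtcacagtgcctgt
These were 3 of the 14 matched genes, and a further window of Ifit1bl1, not shown, also held the core. Of the 11 listed interferon response genes that were at least 2-fold higher than in other epithelial cells in both libraries, 10 had a window. The core was found in at least 1 window of 5 of these genes (Gbp2, Gbp3, Ifit3, Isg15 and Oas1a) and in 3.44% of all single windows. The STAT palindrome TTCNNNGAA was found in 2 of the 14 (Bglap3 and Trim15), in 2 of the 10 (Ifit2 and Oas1a) and in 8.3% of all windows.

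The libraries held 12542 barcodes with 38737373 UMIs and 14168 barcodes with 66297749 UMIs, in the order WT and STK25 wKO, which is kept wherever values are given as pairs. A total of 230 barcodes occurred in both libraries. Of the inflammatory epithelial cells, 2 and 8 had a barcode found in the other library, and 1 barcode was a member in both. The members were deep cells, with a median of 11539.5 and 14236 UMIs and 3355 and 3730 genes, against 8278 and 9903 UMIs in the other epithelial cells and 1383 and 2091 in all kept cells. Mitochondrial UMIs had a median of 3.76% and 2.51%.

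Inflammatory epithelial cells made up 25.77% of epithelial cells under the WT label (exact Clopper-Pearson interval 23.17 to 28.5%) and 19.93% under the STK25 wKO label (18.44 to 21.48%). Over all kept cells the order was the other way, with 2.249% and 3.882%, and the second library also held more epithelial cells, 2705 against 1071. Since the thresholds are in UMIs, cells with at least 3000 UMIs were also thinned to 3000 before gating. Cells with fewer UMIs were left out, 10 and 24 members among them. Inflammatory epithelial cells were then 21.12% and 13.87% of 819 and 2286 epithelial cells. Without thinning, cells high in Wnt targets (at least 4 UMIs) made up 26.7% and 25.29% of epithelial cells. Cells whose colonocyte sum was at least 10 UMIs and above the 5-gene sum made up 7.003% and 8.392%. These last cells are called colonocyte-gene-high cells, and they were not a pure class, since the goblet mucin Muc2 reached 2217 and 2103 CPM (UMIs of a gene per 1000000 UMIs of the group) in them.

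**Figure D1:**
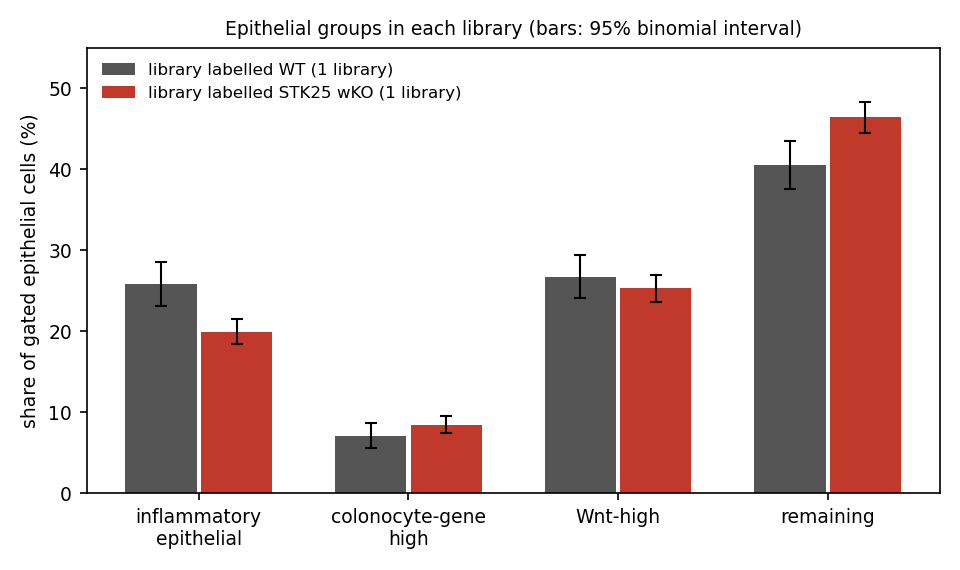
The bars give the share of epithelial cells (%, vertical axis) in each gate for both libraries, and the error bars are exact 95% Clopper-Pearson intervals for counting error only. The share of inflammatory epithelial cells was 25.77% for the WT label and 19.93% for the STK25 wKO label, and the remaining cells were the largest group with 40.52% and 46.4%.

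The rule was met narrowly by some cells and by a wide margin by others. The sum over the 5 genes had a median of 33 and 37 UMIs and reached 1638 and 583. At the edge, 27 and 38 members had a sum of 10 or 11 UMIs, and 23 and 74 epithelial cells that met the other conditions had 8 or 9. A further 28 and 67 cells with a sufficient sum were left out by the Wnt limit and 17 and 32 by the colonocyte sum. All 5 genes had a UMI in 115 and 232 members, and 8 and 6 members were selected by 1 gene alone.

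Clca4b (ENSMUSG00000074195; chr3:144910921-144932529, minus strand) stood at 1857 and 1274 CPM in the members and at 103 and 63.0 CPM in the other epithelial cells. Duoxa2 had 877 and 621 CPM in the members against 82.1 and 68.9. Ly6d (chr15:74762056-74763620, minus strand) had 1389 and 1273 CPM, and Ly6g (chr15:75155240-75159126, plus strand) 692 and 730. Tmem37, a channel subunit-like membrane protein gene at chr1:120067377-120074074 on the minus strand, was the lowest of the 5 with 274 and 298 CPM. All of these levels followed from the rule.

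RNA from outside the cells was gauged in B cells, which were chosen by Cd79a, Cd79b and Ms4a1 and had a median depth of 1876 and 1878 UMIs. With cells of at least 1000 UMIs thinned to 1000, Clca4b had a UMI in 62.9% and 61.0% of the members and in 5.13% and 3.96% of B cells. Duoxa2 had one in 49.8% and 42.5% of the members and in 1.28% and 1.98% of B cells. At their own depth, Clca4b was found in 89.1% and 89.4% of the members and in 10.1% and 9.71% of B cells. Ly6d is no gauge of this kind, because it reached 912 and 1020 CPM in B cells. Ly6g reached 875 CPM in the neutrophils of the library labelled STK25 wKO and 20.7 CPM in the 23 neutrophils of the library labelled WT.

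The rule was also run with each gene in turn left out of the sum. Clca4b was then higher than in the other epithelial cells by a log2 ratio of 3.40 (3.33 to 3.47) and 3.26 (3.20 to 3.31). Duoxa2 gave 3.06 and 2.94, Ly6d 3.40 and 3.88, Ly6g 3.24 and 3.49, and Tmem37 3.24 and 3.42. Without Clca4b, 205 and 406 cells were chosen. Cells chosen in this way are members by construction, because adding the gene back can only raise the sum. The 5 genes had been put together from these same data, so these ratios are a description and no support is drawn from them.

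Saa1 (chr7:46740497-46742980, minus strand) was not part of the rule. Its level was 3514 CPM (3463 to 3565) and 1491 CPM (1466 to 1516) in the members, against 1814 and 1127 in colonocyte-gene-high cells and 231 and 81.0 in Wnt-high cells. Saa1 had a UMI in 76.4% and 77.2% of the members and in 17.7% and 14.6% of B cells. Reads of Saa1 and its near-identical neighbour may not be fully separable, and the same holds for the Ly6, Sprr2, Defa and Ifit3 families below.

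**Figure D2:**
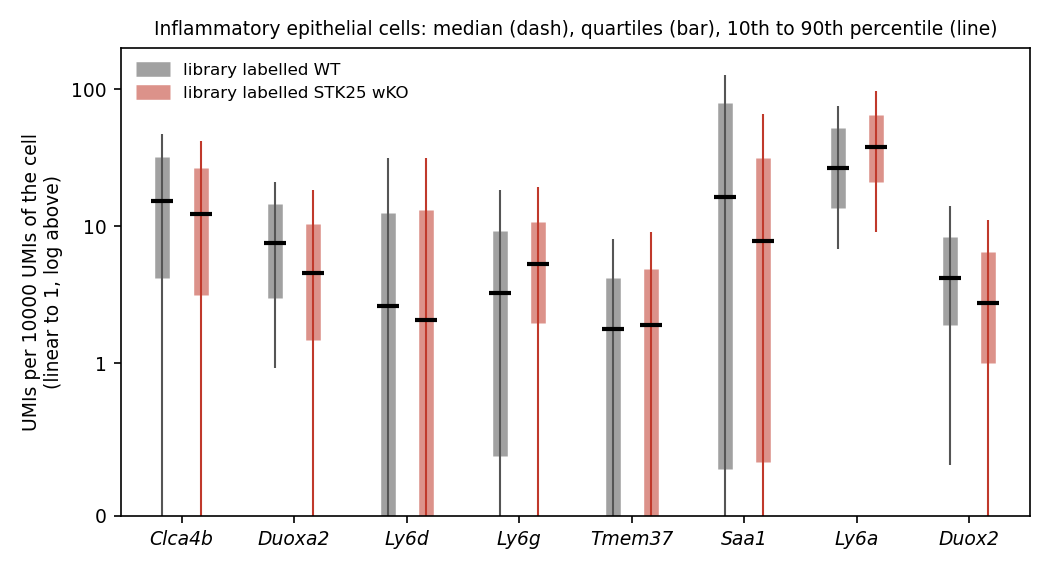
The vertical axis gives UMIs of a gene per 10000 UMIs of the cell, linear up to 1 and logarithmic above, for the 276 and 539 inflammatory epithelial cells of both libraries, with the median as a dash, the quartiles as a bar and the 10th to 90th percentiles as a line. The medians were 15.2 and 12.3 for Clca4b, 7.58 and 4.52 for Duoxa2, 2.63 and 2.06 for Ly6d and 16.4 and 7.82 for Saa1, and the bars of both libraries overlap for each gene.

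The members were not uniform. The gene with most UMIs of the 5 was Clca4b in 147 and 260 cells, Duoxa2 in 51 and 59, Ly6d in 50 and 126, Ly6g in 28 and 86 and Tmem37 in 0 and 8. The 10% of cells with most Ly6d UMIs held 73.0% and 65.1% of them. Across members, Clca4b and Ly6d had a Spearman's rho of 0.14 and −0.01 over 276 and 539 cells. Members were admitted on the sum of the 5 genes, so that a cell low in one needed another to be high, which lowers any correlation between genes of the rule. Clca4b and Saa1 had a rho of 0.67 and 0.61, Duoxa2 and Duox2 of 0.58 and 0.63 and Ly6g and Lypd8 of 0.65 and 0.55. These correlations are descriptions over cells that share a library and differ in depth.

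Arg1, which encodes arginase 1, and Prss22, which encodes a serine protease, were picked after their values were seen, and the cells were split here by a gene of the rule, so the values that follow are a description. Arg1 correlated with Ly6d with a rho of 0.55 and 0.42, and Prss22 with 0.53 and 0.46. Arg1 stood at 520 and 263 CPM in cells in which Ly6d had most UMIs and at 119 and 68.3 CPM in cells in which Clca4b had most. Saa1 was at 5035 and 2254 CPM in the cells with most Clca4b and at 911 and 1076 CPM in those with most Duoxa2. The correlation of Ly6d with Saa1 was 0.11 and 0.06.

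Against the other epithelial cells, 7908 genes with enough counts were compared (at least 50 UMIs over the groups and 20 CPM in at least 1). Of these, 450 (5.69%) were at least 2-fold higher in the members in both libraries and 1120 (14.2%) at least 2-fold lower, on the scale of log2(CPM + 1). The median log2 ratio of all these genes was −0.44 and −0.35, and list medians against the other epithelial cells are to be read beside it. Ratios given for single genes are without a pseudocount unless the scale is stated. With that median set to 0, the split was 804 higher and 574 lower, so that higher genes were 58.35% of the calls in place of 28.66%. Because the members were chosen in the same cells, these counts describe the population and carry no test. List values against the colonocyte-gene-high cells are to be read beside the values over all genes of that comparison. There, 4.7% of 7021 genes were at least 2-fold higher in both libraries and 5.68% at least 2-fold lower, with a median log2 ratio of −0.13 and 0.02.

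**Figure D3:**
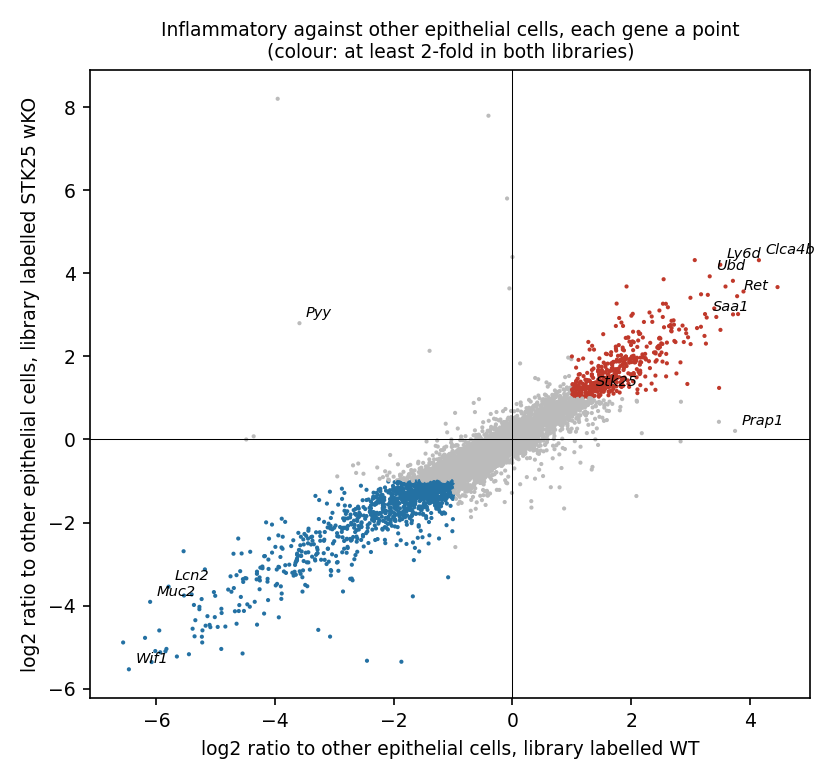
Each point is 1 gene, with its log2 ratio of inflammatory to other epithelial cells, log2(CPM + 1), in the library labelled WT on the horizontal axis and in the other library on the vertical axis. The 450 genes at least 2-fold higher in both are red, the 1120 at least 2-fold lower are blue, and Pyy lies off the diagonal at −3.59 and 2.80.

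The 20 highest genes, ranked by the lower of both libraries' ratios, were Clca4b, Ly6g, Ly6m, Ifit1bl1, Ifit3b, Ly6d, Ret, Ubd, Tmem37, Aldh1a3, Duoxa2, Sprr2h, Trim15, Ly6c1, Gbp2, Bglap3, Ido1, Saa1, Ly6a and Csta1. Ly6m stood at 1093 and 642 CPM, with log2 ratios of 4.50 and 3.69. Ret, a receptor tyrosine kinase of neural crest and kidney development, was at 61.9 and 39.1 CPM with ratios of 4.12 and 3.87. Aldh1a3, which makes retinoic acid from retinaldehyde, reached 283 and 461 CPM with 3.22 and 3.53. Ido1, which starts tryptophan breakdown, was at 30.6 and 32.1 CPM with 4.0 and 3.29. Sprr2h, a cornified envelope gene, had ratios of 3.25 and 4.82, Bglap3 3.04 and 3.44, and Csta1 2.85 and 3.06.

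Genes of the oxidase system were high together. Duox2, the catalytic partner of DUOXA2, stood at 453 and 312 CPM, with log2 ratios to other epithelial cells of 2.62 and 2.35. Duoxa1, the maturation factor of the related oxidase DUOX1, was low at 29.4 and 16.9 CPM but had ratios of 3.29 and 3.20. Nos2, the inducible nitric oxide synthase, was found in 50% and 39.7% of members, at 171 and 92.2 CPM (ratios 3.06 and 2.36). Of 13 listed oxidase and redox genes compared, 6 were higher in both libraries (Duox2, Duoxa1, Gpx3, Nos2, Prdx6 and Txnrd1) and 0 were lower, with a list median of 1.08 and 0.95. Prdx6, which reduces peroxides, had 3724 and 2888 CPM with ratios of 2.41 and 1.88. The gut glutathione peroxidase gene Gpx2 was abundant throughout, at 1941 and 2429 CPM, and differed little (0.38 and 0.12). Prdx1 and Cyba, the other abundant members of the list, had ratios between −0.29 and 0.41.

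In the Ly6 and uPAR family, 6 of 7 compared members were higher (Ly6a, Ly6c1, Ly6m, Lypd8, Plaur and Psca) and 0 lower, with a median of 2.81 and 2.74. Lypd8, a secreted-surface protein that keeps flagellated bacteria off the colonic epithelium, was the most abundant at 21608 and 23647 CPM, with ratios of 2.81 and 2.65. Ly6a, known as Sca-1, stood at 4725 and 5200 CPM (2.87 and 2.74) and Ly6c1 at 562 and 544 CPM (3.84 and 3.04). Ly6e, a broadly expressed member, was the exception with −0.58 and 0.11. Psca was detected in 3.26% and 1.11% of members, and 1 cell held 40.9% and 95.3% of its UMIs. Ly6 genes lie side by side on chromosome 15: of 28 annotated genes from 74714839 to 75567255, from Psca to Ly6h, 8 could be compared and 7 were higher in both libraries, 2 of them genes of the rule. A second run of neighbours was seen on chromosome 17 from 36860691 to 37196095, where 6 of 8 compared genes from Trim15 to Ubd were higher (Trim15, Trim10, Trim40, Trim31, Rnf39 and Ubd). Both regions were picked after the values were seen.

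In the CLCA family, Clca3a2, Clca3b and Clca4a were higher than in other epithelial cells and Clca1, a goblet cell product, was lower, of 5 compared (median 1.76 and 1.38). Clca4a, the neighbour of Clca4b, stood at 472 and 189 CPM (3.54 and 2.68) and Clca3b at 1035 and 760 CPM (1.97 and 1.85). Clca3a2 had ratios of 1.81 and 1.43 and Clca3a1 of 1.71 and 0.94. Among 21 acute phase and antimicrobial genes, 6 were higher (Ltf, Lypd8, Pglyrp1, Reg3g, S100a11 and Saa1) and 6 were lower (Ang4, Itln1, Lcn2, Lyz1, Retnlb and Zg16), with a median of 0.38 and 0.45. Pglyrp1, a peptidoglycan-binding protein, had 3862 and 4946 CPM (1.04 and 1.12), and S100a11 3066 and 3926 CPM (1.32 and 1.28). Reg3g, a secreted antibacterial lectin, averaged 1086 and 866 CPM but was found in only 23.2% and 33.4% of members. Lcn2, an iron-scavenging protein of inflamed mucosa, was almost absent at 3.87 and 21.3 CPM, while Wnt-high cells had 491 and 559 CPM. The colonocyte-gene-high cells had still less, since Lcn2 was at least 2-fold higher in the members than in them in both libraries.

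Several chemokine and cytokine genes were higher, 5 of 19 compared (Cx3cl1, Cxcl16, Cxcl5, Il1a and Il1rn), against 4 lower (Ccl25, Ccl6, Csf1 and Cxcl10), with a median of 0.22 and 0.29. Cxcl5, a neutrophil attractant, stood at 358 and 304 CPM (1.95 and 2.47). Il1rn, the interleukin-1 receptor antagonist, was at 119 and 164 CPM (1.73 and 1.89). The neutrophil attractant Cxcl2 was at 142 and 251 CPM, Mif, a macrophage migration factor, had ratios of −0.23 and −0.39, and Il18 of 1.23 and 0.62. Of 12 genes of interleukin-17 and interleukin-22 receptors and response, 3 were higher (Il22ra1, Sprr2h and Steap4) and 0 lower, with a median of 1.11 and 0.11. Steap4, a metalloreductase induced by interleukin-17, had 126 and 78.7 CPM (2.35 and 1.93). Zc3h12a had ratios of 1.10 and 0.92, Nfkbiz of 0.34 and 0.07 and Stat3 of −0.27 and −0.05. Of 19 genes of the NF-κB pathway, 0 were higher and 1 was lower (Ripk2), with a median of 0.14 and 0.15. Nfkbia had ratios of 0.14 and −0.33, Cd14 of 1.0 and 0.76, Tnfaip8 of 0.39 and 0.27 and Bcl3 of 0.41 and 0.45. Against the colonocyte-gene-high cells, 3 of 19 genes of this pathway were higher (Cd14, Icam1 and Rel) and 0 lower, with a median of 0.46 and 0.60.

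Interferon response genes were higher in 11 of 24 compared (Gbp2, Gbp3, Ifi27l2b, Ifi47, Ifit2, Ifit3, Irf7, Isg15, Oas1a, Oasl1 and Xaf1) and lower in 0, with a median of 1.48 and 0.86. Irf7, a transcription factor that amplifies the interferon response, stood at 266 and 200 CPM (2.71 and 2.64). Isg15, a ubiquitin-like modifier, was at 461 and 266 CPM (1.75 and 1.54), and the transcription factor gene Irf1 at 152 and 108 CPM (1.07 and 0.73). Ifit1bl1 and Ifit3b, members of the IFIT family outside the list, were at 680 and 508 CPM (3.62 and 3.72) and at 59.96 and 51.3 CPM (4.27 and 3.90). Gbp2, an interferon-inducible GTPase, had 77.0 and 133 CPM (3.97 and 3.09). Ubd, a ubiquitin-like protein induced by interferon-γ and tumour necrosis factor, had 171 and 317 CPM (3.40 and 3.99). Antigen presentation genes of MHC class I and the immunoproteasome were higher in 6 of 14 (H2-D1, H2-T23, Psmb8, Psmb9, Tap1 and Tap2) and lower in 0, with a median of 1.11 and 0.85. H2-D1, a classical class I heavy chain, had 1248 and 1289 CPM (1.08 and 1.12), and H2-K1 had ratios of 0.84 and 0.79, H2-T23 of 1.30 and 1.07 and B2m of 0.17 and 0.40. In MHC class II, 1 of 6 was higher (H2-DMb1), with a median of 0.83 and 0.83. Against the colonocyte-gene-high cells, 5 of 24 interferon response genes were higher (Gbp2, Gbp3, Ifit3, Irf7 and Usp18) and 0 lower, with a median of 0.53 and 1.23. This list summed to 2980 and 2103 CPM in the members and to 2078 and 977 CPM in the colonocyte-gene-high cells. In the class I list, 2 of 14 were higher than in those cells (H2-Q6 and Tap2) and 0 lower (median 0.31 and 0.85). In the class II list, 0 of 6 were higher than in the colonocyte-gene-high cells and 0 lower (median −0.63 and 0.02).

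The population combined colonocyte and regenerative genes. Of 29 colonocyte differentiation genes, 14 were higher than in other epithelial cells (among them Krt20, Lgals3, Plac8 and Cdhr5) and 5 were lower (among them Cyp2c55, Fabp2, Slc9a3 and Sult1a1), with a median of 1.44 and 0.89. Krt20, a keratin of differentiated intestinal cells, had 1414 and 877 CPM (3.19 and 2.72), and Plac8 had 4528 and 3250 CPM (2.75 and 2.35). Lgals4, Lgals3 and Krt19 were also among the most abundant of the list, with ratios between 1.16 and 2.05. Of 21 fetal-like and YAP-regulated genes, 10 were higher (Anxa1, Anxa2, Anxa3, Basp1, Clu, Ly6a, Marcksl1, Msln, Plet1 and S100a6) and 0 were lower, with a median of 0.99 and 1.47. Clu, which marks a damage-induced stem cell state, had 668 and 1682 CPM (1.20 and 1.95), and Anxa1, a regulator of wound repair, 1300 and 1612 CPM (1.75 and 2.24). S100a6 reached 11808 and 16614 CPM (1.23 and 1.44) and Anxa2 3657 and 4267 CPM (1.82 and 1.90).

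Genes of stratified epithelia were present as well. Of 15 squamous keratin and cornification genes, 10 were higher (Krt13, Krt14, Krt6a, Prss27, Sfn, Sprr1a, Sprr2a3, Sprr2b, Sprr2d and Sprr2h) and 1 lower (Krt17), with a median of 1.86 and 2.26. Against the colonocyte-gene-high cells, 8 of 15 were higher and 2 lower (Sprr2a1 and Sprr2a2), with a median of 3.16 and 2.32. The whole list summed to 2821 and 3113 CPM in the members and to 3270 and 2532 CPM in the colonocyte-gene-high cells. The ratios that follow are to the other epithelial cells. Krt13, a keratin of non-cornified squamous epithelium, stood at 60.7 and 95.9 CPM (2.10 and 3.14), while Sfn was at 1038 and 1046 CPM (1.88 and 1.72). Sprr1a had ratios of 1.88 and 2.76, Sprr2a3 of 1.15 and 1.39 and the desmosomal gene Dsc2 of 0.68 and 0.67. Among 17 proteases and inhibitors, 5 were higher (Klk15, Prss22, Prss32, Serpinb1a and Serpinb5) and 3 lower (Mmp14, Mmp7 and Timp2), with a median of 0.57 and 0.82. Serpinb1a, an inhibitor of neutrophil proteases, had 1236 and 1078 CPM (2.45 and 2.24) and Prss32 809 and 811 CPM (1.35 and 1.04), while Spint2 had ratios of 0.70 and 0.55 and Cstb of 0.48 and 0.82. Of 23 hypoxia and glycolysis genes, 9 were higher (Adm, Ankrd37, Car9, Egln3, Ero1l, Hk2, Pkm, Slc16a3 and Slc2a1) and 0 lower, with a median of 1.18 and 0.86. The glycolytic genes Gapdh, Ldha, Aldoa and Pkm, the most abundant of the list, had ratios between 0.83 and 1.27. Car9, a carbonic anhydrase induced by low oxygen, had 120 and 68.6 CPM (2.0 and 1.30), and the glucose transporter gene Slc2a1 301 and 198 CPM (1.53 and 1.43). Among 9 EGFR ligands and ERBB receptors, Areg (563 and 489 CPM, ratios 1.26 and 1.44) and Egfr (221 and 167 CPM, 1.39 and 1.36) were higher and 0 were lower, with a median of 0.35 and 0.32. Against the colonocyte-gene-high cells neither Areg nor Egfr passed 2-fold in both libraries and Btc was the 1 gene of 9 that did (median −0.05 and 0.40). Relative to the other epithelial cells, the ligand gene Hbegf had ratios of 0.35 and 0.72 and the feedback inhibitor gene Errfi1 of 0.34 and 0.28.

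Of 24 cell cycle genes, 0 were higher than in the other epithelial cells and 14 lower, with a median of −1.20 and −1.53. Against the colonocyte-gene-high cells, 0 of 15 were higher and 0 lower (median 1.75 and 0.25), and the list summed to 845 and 632 CPM in the members and to 361 and 582 CPM in those cells. Mki67, a proliferation marker, had 69.6 and 40.8 CPM in the members and 150 and 106 CPM in the other epithelial cells. Hmgb2 had ratios of −1.29 and −1.68, Ube2c of −0.55 and −1.37 and Birc5 of −0.42 and −1.37. Of 20 Wnt targets and stem cell genes outside the rule, 0 were higher than in the other epithelial cells and 14 lower, with a median of −2.27 and −1.51. The rule limited Wnt targets in the members and left all Wnt-high cells in the comparison group, so this direction follows in large part from the rule. Against the colonocyte-gene-high cells, 2 of 13 were higher (Cd44 and Ephb3) and 0 lower, with a median of 0.36 and 0.54. Relative to the other epithelial cells, the most abundant genes of this list differed less, with Prom1 at 0.87 and 0.52, Ephb2 at −0.50 and −0.13, Cd44 at −0.39 and −0.08 and Slc12a2 at −1.23 and −1.05. In the goblet list, 0 of 13 were higher and 11 lower (median −2.86 and −2.55). The Muc2 level was 15.1 and 50.5 CPM in the members against 1108 and 771 CPM in the other epithelial cells. Agr2 had ratios of −3.05 and −2.77, Spink4 of −5.06 and −3.68, Fcgbp of −1.66 and −1.41 and Galnt12 of 0.73 and 0.38. The lowest genes included Wif1, Pnliprp1, Ptn, Pnliprp2, Spock2, Nkd1, Sbspon, Defa5 and Mdga2, and each of these had their highest level in Wnt-high cells. Wif1, a gene of the rule, stood at 2.90 and 4.11 CPM in the members and at 630 and 530 CPM in Wnt-high cells.

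The remaining lists had genes past 2-fold in both directions or none, beside 5.69% higher and 14.2% lower over all 7908 genes. Among 5 genes of membrane-bound mucins and mucin-like proteins, Muc1 and Muc13 were higher and Cd24a lower (median 0.70 and 1.05). The large mucin genes Muc3 and Muc4 had ratios of −0.40 and −0.24 and of 0.70 and 1.06. Of 14 tight junction genes, Cldn23 was higher and Cldn15 and Cldn2 were lower (0.18 and 0.31). The abundant claudin gene Cldn3 had ratios of 0.95 and 0.76, Cldn4 of 0.38 and 1.01, and F11r of 0.74 and 1.07. Of 18 ion channels and transporters, Atp12a and Scnn1a were higher and Slc4a4, Slc5a8 and Slc7a11 lower (−0.31 and −0.28). The sodium pump gene Atp1b1 had ratios of 0.35 and 0.21, the chloride channel gene Ano1 of 0.35 and 0.78 and Kcnk1 of 0.39 and 0.35. In the list of posterior Hox genes and colon position, 0 of 9 were higher and 0 lower (−0.12 and 0.10), with Cdx1 at −0.26 and −0.53. Of the enteroendocrine and tuft list, 2 genes could be compared and 0 passed 2-fold in both libraries. Avil, Sct and Gcg were at 10.8 and 13.5, at 7.16 and 8.0 and at 0 and 5.33 CPM.

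**Figure D4:**
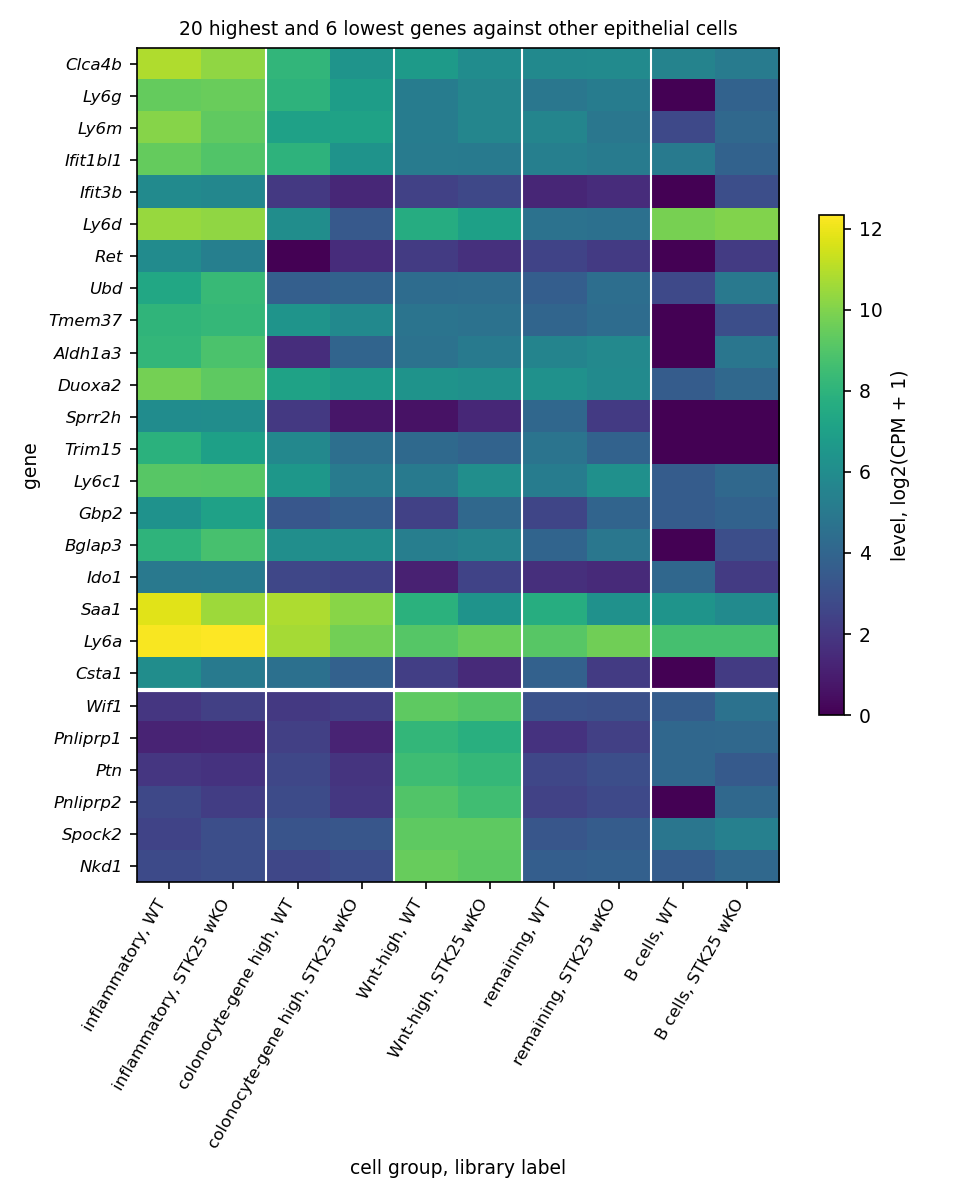
The colour of each cell of the grid gives the level, log2(CPM + 1) of summed UMIs, of the 20 highest (above the white line) and 6 lowest genes against other epithelial cells, in 4 groups of epithelial cells and in B cells of each library. Saa1 and Ly6a are also high in colonocyte-gene-high cells, Ly6d is also high in B cells, and the 6 lowest genes are highest in Wnt-high cells.

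Compared with the colonocyte-gene-high cells, of which there were 75 and 227, 330 of 7021 genes (4.7%) were at least 2-fold higher in the inflammatory epithelial cells in both libraries and 399 (5.68%) at least 2-fold lower. Cells of both kinds shared Saa1 (log2 ratio of inflammatory to colonocyte-gene-high cells 0.95 and 0.40), Lypd8 (0.79 and 0.82) and Krt20 (0.80 and 0.21). None of 32 colonocyte differentiation genes was at least 2-fold higher in the inflammatory cells and 15 were lower, among them Aqp8, Car2 and Slc51a. Of 20 fetal-like genes, 15 were higher and 0 lower (median 2.25 and 2.55). Anxa1 differed by 2.07 and 2.82, Cxcl5 by 5.86 and 5.28, and Aldh1a3 by 7.11 and 4.97. Compared with the Wnt-high cells, 753 of 8080 genes (9.32%) were higher and 1679 (20.8%) lower. The colonocyte-gene-high cells were chosen by the opposite side of the same rule, so these differences are a description of both gates.

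Stk25 (ENSMUSG00000026277; chr1:93619751-93658659, minus strand), which encodes the kinase named in the label, was detected in both libraries. Its level in inflammatory epithelial cells was 278 CPM (264 to 293) in the library labelled WT and 254 CPM (244 to 265) in the library labelled STK25 wKO, a log2 ratio of −0.13 (−0.23 to −0.04). In the other epithelial cells it was 113 and 115 CPM. The level in Wnt-high cells was 69.9 and 84.0 CPM, and that in colonocyte-gene-high cells 259 and 195 CPM. Stk25 was thus higher in the inflammatory than in the other epithelial cells by a log2 ratio of 1.30 (1.19 to 1.41) and 1.15 (1.07 to 1.23), and it was the 1 gene of 11 in the list of GCKIII kinases and the STRIPAK complex to pass 2-fold (list median 0.09 and 0.14). The related kinase gene Stk24 had ratios of 0.36 and 0.39, and the adaptor gene Pdcd10 0.40 and 0.29. Ppp2r1a, a phosphatase scaffold gene, had 0.34 and 0.14. Because UMIs come from the 3′ end and the allele was not described, the Stk25 counts do not check the genotype.

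Between the libraries, 84 of 6157 genes (1.36%) were at least 2-fold higher in the inflammatory epithelial cells of the library labelled STK25 wKO and 89 (1.45%) at least 2-fold lower. Higher genes were 48.55% of these calls, and 59.54% after thinning to 3000 UMIs. The median log2 ratio of all genes was −0.03 in the members and −0.14 in the other epithelial cells. Of the 5 genes of the rule, 0 passed 2-fold. Genotype, library and the pool of tumours cannot be told apart in these values, and ratios below are of STK25 wKO to WT.

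Among the 10 genes with the highest ratios were the posterior homeobox genes Hoxd11 and Hoxd13, which set position along the hindgut. Hoxd11 had 56 UMIs in the members of the library labelled WT and 1184 in those of the library labelled STK25 wKO, or 10.8 CPM (8.18 to 14.1) and 132 CPM (124 to 139), a log2 ratio of 3.60 (3.21 to 4.02). It was found in 9.06% and 65.9% of members and had 0 UMIs in the 79 and 103 B cells, which allows a UMI in up to 3.8% and 2.91% of cells at their median depth of 1876 and 1878 UMIs, far below that of the members. The other epithelial cells differed in the same direction, with 7.75 and 47.5 CPM (2.62). Hoxd13 went from 7.93 to 63.6 CPM (3.0), with a UMI in 5.43% and 50.1% of members. Hoxd10, picked after its value was seen, had 2.71 and 15.9 CPM (2.55), while Hoxa13 had 19.9 and 25.8 CPM (0.37) and Hoxb13 174 and 267 CPM (0.62). Hoxd10 was under the minimum of 20 CPM and was not among the genes compared. Of the 9 compared genes in the list of posterior Hox genes and colon position, 5 were above 0 and 4 below 0 (median 0.18), with Hoxd11 and Hoxd13 at least 2-fold higher and Cdx2, an intestinal transcription factor gene, at least 2-fold lower (58.6 and 22.9 CPM, −1.36).

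Other genes of this group rested on few cells or on RNA that was also found in other cell types. The gut hormone gene Pyy had 11 and 8507 UMIs, 2.13 and 945 CPM, but the 10% of cells with most Pyy held 98.3% of its UMIs in the library labelled STK25 wKO, and it had a UMI in 25.2% of B cells there. Ppy had 0 and 371 UMIs, of which 98.4% came from 1 cell, and a count of 0 allows a UMI of it in up to 1.09% of the members of the library labelled WT. Retnlg and S100a9 are neutrophil genes. S100a9 stood at 12.6 and 131 CPM in the members and at 11.1 and 546 CPM in B cells, and Retnlg at 0.19 and 30.5 CPM in the members and 5.56 and 123 CPM in B cells. Over the whole list of 13 neutrophil markers, the summed level was 81.6 and 320 CPM in the members, 29.1 and 415 CPM in the other epithelial cells and 94.5 and 1519 CPM in B cells. In the members of the library labelled WT, Csf3r, Cxcr2, Mmp8, Ngp and Camp were at 0 (a UMI of each is allowed in up to 1.09% of cells), and in the other library none was. With cells that had a UMI of Csf3r, Cxcr2 or Retnlg left out, a choice made after seeing the data, 275 and 421 members remained. S100a9 then had a ratio of 2.36 on the log2(CPM + 1) scale, which was smaller than over all members (12.6 and 131 CPM). Retnlg was itself among the genes with the highest ratios, and far more cells were left out of the library labelled STK25 wKO. The part of neutrophil RNA in the values of Ly6g and S100a9 was not tested beyond this.

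Slpi, a secreted inhibitor of leukocyte proteases, stood at 14.1 and 209 CPM in the members (ratio 3.88 without a pseudocount), with 484 and 1430 CPM in B cells. Leaving out the cells with neutrophil marker UMIs kept 275 of 276 and 421 of 539 members. The Slpi ratio in these was 3.94 on the log2(CPM + 1) scale, which is not the scale of the value over all members. Cdkn2a, a cell cycle inhibitor gene, was at 6.19 and 54.2 CPM (3.13; 2.61 to 3.69) and was higher in the other epithelial cells too (16.3 and 55.2 CPM). Spp1 had 6.19 and 65.6 CPM, with 42.5% of the latter in 1 cell. The goblet gene Zg16 had 4.26 and 39.3 CPM (3.21), and B cells had 27.8 and 106 CPM. Klk15, a kallikrein gene named after its value was seen, had 35.6 and 218 CPM (2.62; 2.40 to 2.84), with 3.41 CPM in B cells of the second library and 8.94 and 48.6 CPM in the other epithelial cells.

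The 10 lowest ratios belonged to Ppbp, Cnfn, Sprr2d, Psca, Ltf, Saxo1, Prap1, Prss27, B4galnt2 and Krt90. B4galnt2, a glycosyltransferase that makes the Sda antigen of colonic glycans, was spread over many cells and went from 117 to 20.7 CPM (−2.50; −2.75 to −2.26), with a UMI in 61.6% and 19.3% of members. It differed less in the other epithelial cells, with 93.9 and 59.6 CPM (−0.66), although this difference between ratios was not tested. Saxo1 had 21.3 and 2.78 CPM (−2.94). Prap1, a secreted gut protein gene, had 108 and 18.5 CPM (−2.55) in the members and a ratio of 1.16 in the other epithelial cells. Single cells weighed heavily in others: 1 cell held 79.7% of the Cnfn UMIs and 63.5% of the Krt90 UMIs in the library labelled WT, and 35.7% of the Ppbp UMIs. Ltf, an iron-binding antimicrobial protein gene, had 266 and 19.3 CPM with a UMI in 11.96% and 8.53% of members. Sprr2d had 216 and 9.33 CPM (−4.53), but its direction turned under a stricter rule for members, from −4.39 to 2.27 on the log2(CPM + 1) scale at a 5-gene sum of at least 20 UMIs. Psca had 268 and 16.7 CPM (−4.01), in few cells as given above.

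Interferon response genes were lower in the library labelled STK25 wKO for 21 of the 24 compared, with a median log2 ratio of −0.45 in the members and −0.32 in the other epithelial cells. At least 2-fold lower were Ifit1, Ifit2, Ifit3, Oasl1 and Rsad2. Ifit1 had 169 and 48.3 CPM (−1.81; −1.98 to −1.64), Ifit2 118 and 34.1 CPM (−1.79) and Rsad2, an antiviral enzyme gene, 80.1 and 17.8 CPM (−2.17). Oasl1 was at 157 and 66.7 CPM (−1.23). These genes came from few cells, since the 10% of members with most Ifit1 UMIs held 90.7% and 74.3% of them. Above 0 were Gbp2 (0.78), Gbp3 (0.52) and Ifi47 (0.23), and Ubd from outside the list stood at 0.89.

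**Figure D5:**
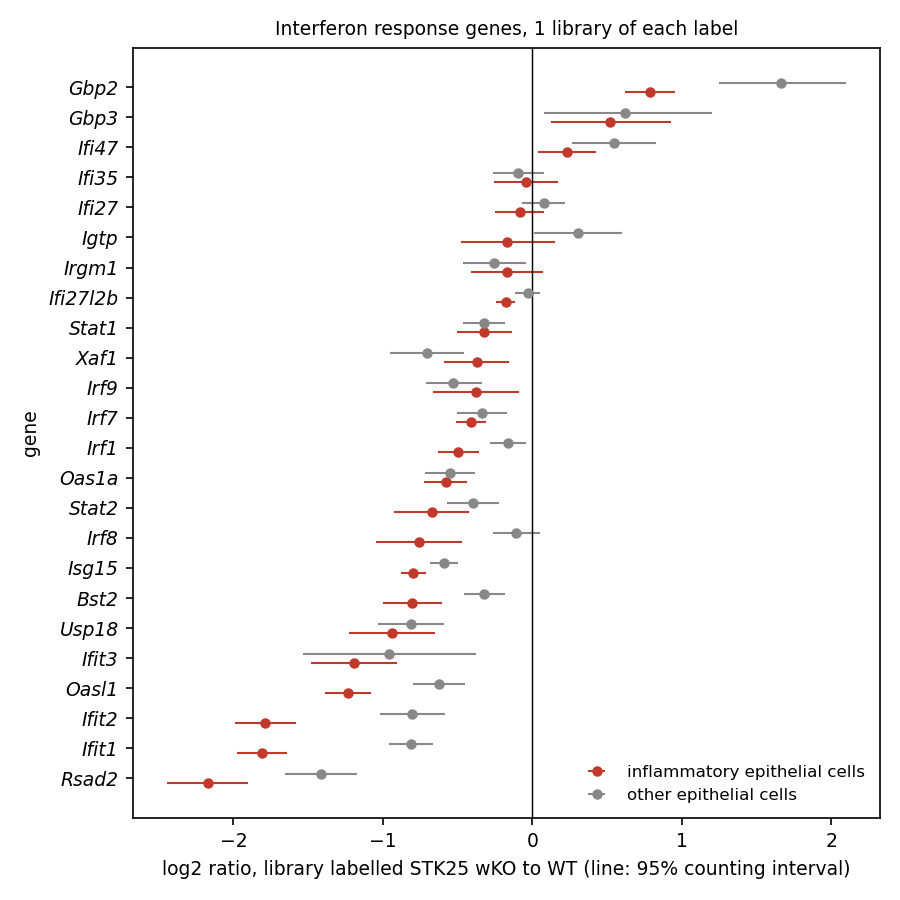
Points give the log2 ratio of the library labelled STK25 wKO to the library labelled WT for the interferon response genes in inflammatory and in other epithelial cells, with exact 95% conditional binomial intervals for counting error only. In inflammatory cells 21 of 24 genes lie below 0, from Rsad2 at −2.17 up to Gbp2 at 0.78 on the other side.

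MHC class II genes went the opposite way, with 6 of 6 above 0 and 5 at least 2-fold higher (Cd74, H2-Aa, H2-Ab1, H2-DMb1 and H2-Eb1; median 1.48), and the other epithelial cells had a like median of 1.47. Cd74, the invariant chain, had 368 and 1121 CPM in the members, with 6508 and 7747 CPM in B cells, which use this gene. H2-Aa had 57.5 and 197 CPM, H2-Ab1 81.4 and 210 CPM and H2-Eb1 45.8 and 148 CPM (1.69; 1.49 to 1.89). The list of B cell markers summed to 31.1 and 74.2 CPM in the members and to 17951 and 26030 CPM in B cells, and 1 member of the library labelled STK25 wKO held 382 UMIs of it. The list of macrophage markers summed to 213 and 355 CPM in the members. Their part in the class II values was not tested. The lists of T cell (17.6 and 11.2 CPM), fibroblast (21.7 and 44.2), endothelial (25.9 and 20.8) and erythroid and platelet markers (117 and 197) had low sums in the members, the last with 184 and 1492 UMIs in 1 cell of each library.

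Fetal-like genes were above 0 for 17 of 20 (median 0.54, and 0.12 in the other epithelial cells), and Clu (1.33) and Msln (1.59) were among the 4 at least 2-fold higher. Colonocyte differentiation genes were below 0 for 21 of 25 (median −0.45; other cells −0.04), CLCA genes for 4 of 4 (−0.99; −0.39), and genes of interleukin-17 and interleukin-22 receptors and response for 11 of 12 (−0.60; −0.32). Hypoxia and glycolysis genes were below 0 for 21 of 23 (−0.34; −0.10), with Adm and Hk2 at least 2-fold lower. Cell cycle genes were below 0 for 13 of 15 (−0.50; 0.06). Goblet genes were above 0 for 8 of 9 (1.23; 0.66). The goblet list summed to 384 and 821 CPM in the members, to 623 and 1031 CPM in B cells and to 1015 and 2141 CPM in neutrophils. In the library labelled STK25 wKO, 1 member held 1337 UMIs of this list, where the 90th percentile of members was 20. The part of that cell and of RNA from outside the cells in the goblet values was not tested. Saa1 was lower in the members by a log2 ratio of −1.24 and in the other epithelial cells by −0.90. Whether any of these lists differed more between libraries in the members than in the other epithelial cells was not tested.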

How the data were processed

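For 2 droplet 3′ libraries of pooled tumours, UMI counts that had not been normalised were deposited by the authors for each barcode. They were made with Cell Ranger 7.1.0 per the file headers, and the processing notes of the submitters name mm10 and, without a role, Seurat. Members were chosen by the rule in the report. Counts were summed per gene, group and library and given as CPM, and log2 ratios of groups use CPM + 1, except for single genes with an interval (exact conditional binomial, no pseudocount). Levels have exact Poisson and shares exact Clopper-Pearson intervals. The members and the gene lists were chosen with earlier results of these data known. Genes named were those of the rule, the 20 highest and 10 lowest against other epithelial cells, the 10 highest and lowest between libraries, the 4 members of a described list with most UMIs, and Stk25, and further genes were named after their values were seen. Some genes chosen this way are left out of the text. In all, 25 gene lists and 7 marker lists were used. Doublets were not removed. Scrublet's automatic threshold marked 0% of cells, so cells with the highest scores were left out as an alternative, which held 2 and 79 members. The steps were tested on simulated data, with Python 3.11.15, numpy 2.4.6, scipy 1.17.1, pandas 2.3.3, scanpy 1.11.5 and matplotlib 3.10.9.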

Additional observations from a re-analysis of the deposited data

Results flagged for a closer look

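Results were listed here where 2 groups of cells or libraries moved in opposite directions under the same contrast. The differences were not tested, since there was 1 library per genotype, and values include 1 CPM added to both levels. Prap1 had a log2 ratio of STK25 wKO to WT of −2.49 in inflammatory epithelial cells and of 1.05 in other epithelial cells. Pyy had a log2 ratio of inflammatory to other epithelial cells of −3.59 for the WT label and of 2.80 for the STK25 wKO label.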

How the results depend on the processing

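No paired analysis was possible because each group had 1 library, and for the same reason no replicate could be left out. The share of inflammatory epithelial cells, 25.77% and 19.93% in the main values, was 32.12% and 26.36% with a 5-gene sum of at least 5 UMIs, 17.46% and 14.42% with at least 20, 21.12% and 13.87% with cells thinned to 3000 UMIs first, and 23.16% and 18.37% with a UMI of at least 3 of the 5 genes, the last chosen after seeing the data. The library labelled WT had the larger share in each. Against other epithelial cells, 804 genes were higher and 574 lower with the median set to 0, and 2552 were lower with at least 20 UMIs and no CPM minimum. That filter gave 335 genes higher and 225 lower between libraries. Sprr2d, at −4.39 between libraries in the main values, had log2 ratios of 2.27 with a sum of at least 20, 5.07 after thinning and 0.60 with at least 3 genes, and the cause was not tested. Under the alternatives, 683 values for single genes and list medians were compared with the main values. Of these, 520 moved by less than the distance from the middle to an end of their counting interval and 160 by more. The larger distance of both libraries was used for ratios within libraries, and 0.1 for medians and where no interval could be given. The other 3 values, those of Sprr2d, changed sign. With 276 members in the library labelled WT, a count of 0 allows a UMI of a gene in up to 1.09% of them.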
